A study of Mus musculus with 18 samples.

Results

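The circadian clock genes described here are Clock, Npas2, Per1, Per2, Per3, Cry1, Cry2, Nr1d1, Rorb and Dbp, measured in the brains of male 129SV mice with and without the transcription factor Nrf2. They were found as every probe whose transcript accession names one of the 10 genes, which gave 18 of the 41174 probes and 10 of the 32301 genes or unnamed accessions on the array. The mice were either Nrf2WT, the wild-type control, or Nrf2KO, in which Nrf2 (gene Nfe2l2) is knocked out, and they were unstressed. Total RNA of cortex, hippocampus and brainstem was measured on 18 single-colour Agilent arrays, with 3 arrays, numbered 1 to 3, for each region and genotype. The descriptions tie a number to a mouse of that genotype, and the design text calls the RNAs independent. Age, the construction of the knockout allele and the hour at which tissue was taken are not given in the sources used here.

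The mammalian clock is a feedback loop of transcription. Clock or its relative Npas2 pairs with Arntl (BMAL1) and switches on the Per and Cry genes, whose proteins return to the nucleus and silence the pair. A second loop joins on, in which the nuclear receptor Nr1d1 (REV-ERB alpha) represses Arntl and the ROR receptors, among them Rorb, activate genes through the same kind of site. Dbp, a transcription factor of the PAR-bZIP family, is a direct output of the pair and one of the genes with the widest daily swing, and Nfil3 is its antagonist at shared binding sites. In the brain these genes cycle in most regions as well as in the suprachiasmatic nucleus, and their RNA levels depend on the hour at which an animal is killed.

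Promoter windows were taken from the RefSeq table for build GRCm38.p6 to show the elements through which the members act on each other. The table held 13 windows for 9 of the 10 members and none for Per2, which was not searched. The 250 bases before each start were searched on both strands. CACGTG, the E-box bound by Clock or Npas2 with Arntl, was found in 2 of these 9 genes, Per1 and Cry1. It stood in 1 window of each, out of the 13, and in 6.02% of all 32851 windows. TTATGTAA, the D-box bound by Dbp and Nfil3, was found in Per3 alone of the 9 genes, where it stood in 2 copies. It was found in 0.819% of all windows, and only 6 windows held 2 or more copies. AGGTCA, the half-site of ROR and REV-ERB receptors, was found in a window of Clock and of Per1, against 14.0% of all windows, and TGACGTCA, the cyclic AMP response element, in none of the members' windows, against 1.55%. In Per1 the half-site lay 137 bases before the start, on the opposite strand (read as TGACCT along the gene), and did not overlap the E-box. The stretches of Per1, Cry1 and Per3 are printed because these repressors carry the elements of the members described below. They run 5′ to 3′ along the gene, with the E-box or D-box in capitals and the Per1 half-site in lower case. They lie at chr11:69098743-69098828 on the plus strand, 166 bases before the first Per1 start, at chr10:85185069-85185154 on the minus strand, 60 bases before the Cry1 start, and at chr4:151044796-151044890 on the minus strand, 205 and 158 bases before the Per3 start. A match is a run of letters and shows no binding.
Per1: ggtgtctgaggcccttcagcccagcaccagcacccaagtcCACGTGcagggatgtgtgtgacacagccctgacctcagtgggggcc
Cry1: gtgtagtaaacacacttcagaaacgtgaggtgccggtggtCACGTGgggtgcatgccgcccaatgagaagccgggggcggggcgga
Per3: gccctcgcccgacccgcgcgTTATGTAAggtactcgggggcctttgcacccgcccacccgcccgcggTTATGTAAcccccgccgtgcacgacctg

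A level is the log2 of a probe's processed intensity minus the 75th percentile of its array, so 0 is the 75th percentile and 1 unit is a doubling. All 10 members were tested, each by its brightest probe. Of the 18 probes, 17 passed the filter on dim probes and 16 were well above background on all 18 arrays. For 4 members, Npas2, Per1, Per3 and Dbp, the array held 1 probe each. No second probe could be set beside their values. Differences come from limma's moderated test on 22671 genes, with Benjamini-Hochberg adjustment over all of them, and a gene is called at an adjusted p under 0.05. The 75th percentile of raw intensity lay between 653 and 1130 on the 18 arrays, 65.3% to 75.1% of spots were well above background, and no spot was saturated. Both Nfe2l2 probes separated the genotypes on every array, from 0.10 to 1.35 in wild type and from -8.42 to -3.63 in knockout. Knockout brainstem array 1 had the lowest share of spots above background (65.3%) and stood apart for several members, and results without it are given where they change. The arrays were on 5 slides, each with both genotypes. The cortex arrays were on 2 slides of their own, so cortex and slide cannot be told apart, while brainstem and hippocampus arrays met on 1 slide. In the value table the authors deposited, 7 of the 18 columns hold the values of another array than the one in their title, so the scanner output of each sample was used.

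**Figure D1:**
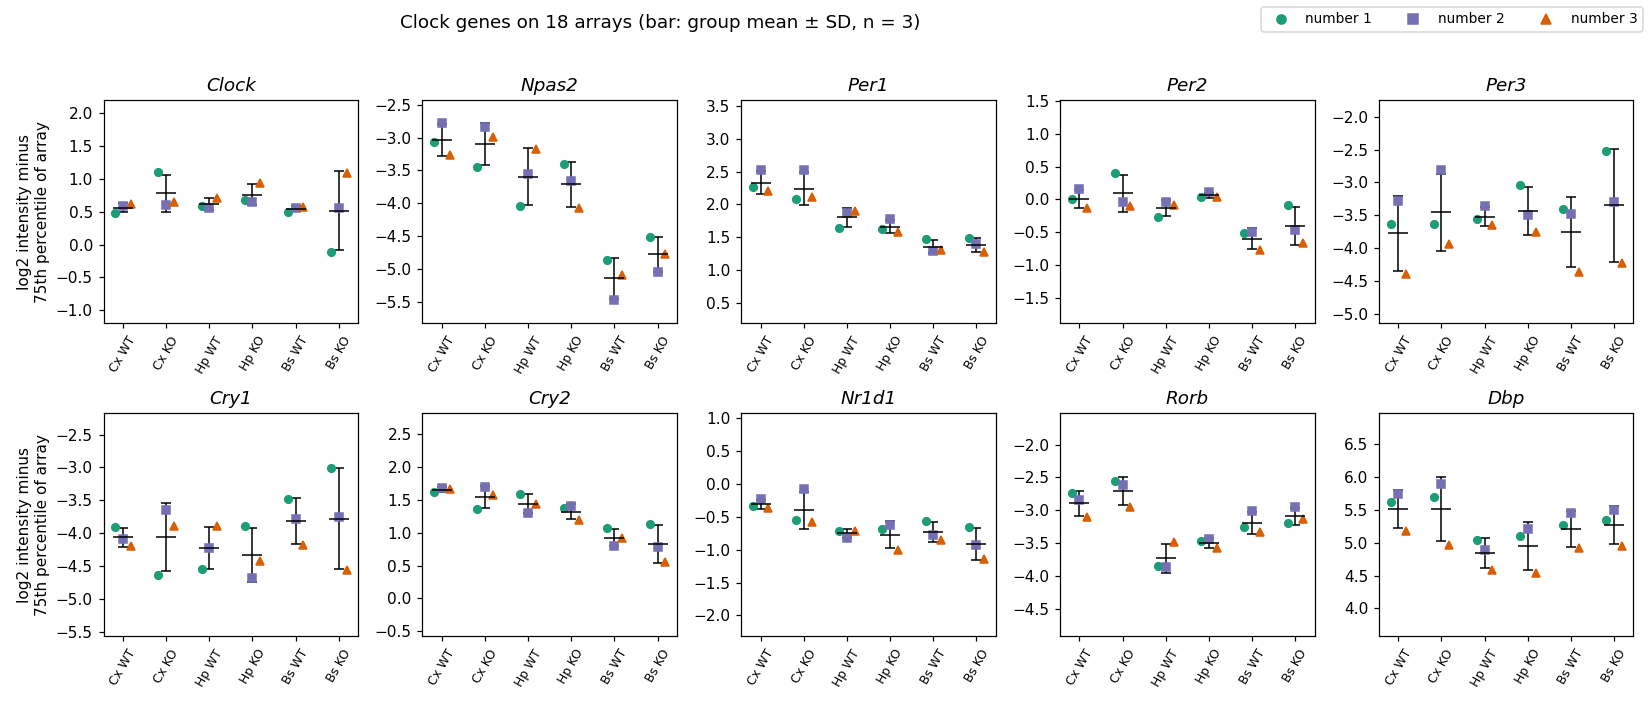
Level of each clock gene (log2 processed intensity minus the 75th percentile of the array, vertical axis) on every array, by group on the horizontal axis (Cx, cortex. Hp, hippocampus. Bs, brainstem. WT, wild type. KO, Nrf2 knockout). Symbols mark replicate numbers and bars the mean ± SD (n = 3). Every panel spans the same log2 range, Npas2 lies lowest in brainstem, and the number 3 arrays of Dbp and Per3 lie lowest in all 6 groups.

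The first question was whether loss of Nrf2 moved the clock genes of the unstressed brain. No member passed the test in any region. The count was 0 of 10 in cortex, where 0.0309% of all genes were called, 0 of 10 in hippocampus (0.0176% of all genes) and 0 of 10 in brainstem (0.0309%). Averaged over the 3 regions it was again 0 of 10, against 0.0529% of all genes. The number of members with an unadjusted p under 0.05 was 0 in each region, where 2.18%, 1.35% and 2.99% of all genes were that low in cortex, hippocampus and brainstem, and 1 for the average (6.91% of all genes).

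The member with that p was Rorb, whose averaged difference between knockout and wild type was 0.18 ± 0.08 (SE), with an adjusted p of 0.72 in limma. Among the repressors Per2 came closest to a regional separation. Its 3 hippocampal levels were 0.04, 0.11 and 0.04 in knockout and -0.26, -0.04 and -0.08 in wild type. The 2 groups did not overlap, which held for 7.91% of all genes in hippocampus, and the difference of 0.19 ± 0.16 was not called. In cortex and brainstem the knockout and wild-type levels of all 10 members overlapped, while 5.99% and 6.58% of all genes did not.

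What the arrays could have shown differed between members. The narrowest interval for the averaged difference was that of Per1, the Per gene most readily induced by stimuli, at -0.23 to 0.09 (95%). The widest regional intervals were those of Per3, which reached from -0.58 to 1.21 in cortex and from -0.49 to 1.30 in brainstem. For Dbp, the output gene, the averaged difference was 0.06, with an interval from -0.26 to 0.37. For Clock it was 0.11, from -0.16 to 0.38, and for Nr1d1 it was -0.10, from -0.29 to 0.09. A missing call therefore does not show that the genotypes were alike.

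The difference between the knockout effects of 2 regions was called in limma for 0 of 10 members, with 0% of all genes called in each of the 3 comparisons and 0 of the members at an unadjusted p under 0.05. Of 39 other clock pathway genes on the array and tested, 0 were called between genotypes in any region or on average. Their median averaged difference was 0.01, the members' was 0.06 and that of all genes was 0.00. Arntl, the partner of Clock and Npas2, had group means of 0.82 ± 0.05 (SD, n = 3) in wild-type and 0.83 ± 0.21 in knockout cortex.

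**Figure D2:**
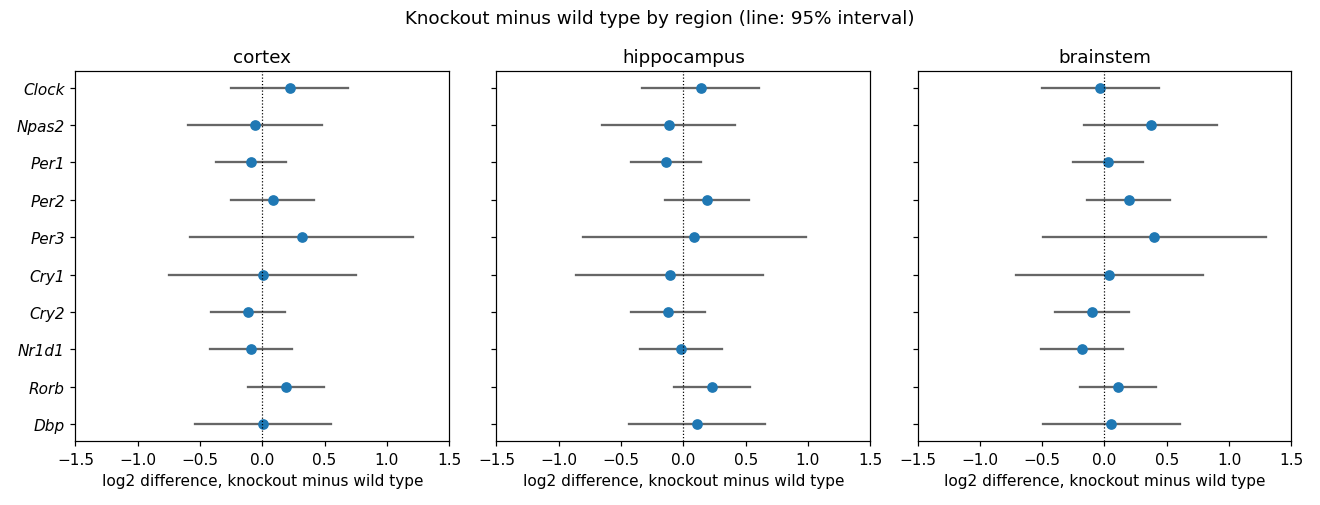
Knockout minus wild type (log2 difference, horizontal axis) for each clock gene in cortex, hippocampus and brainstem. Points are the fitted differences and lines their 95% intervals, from 3 arrays a group. Every interval includes 0, and those of Per3 and Cry1 are the widest.

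More members were called between regions than between genotypes, but Clock, Per3, Cry1 and Dbp were called in neither in the main fit. The genotypes shared every slide, while cortex lay on slides of its own. The region comparisons were made within each genotype on separate arrays. In hippocampus against cortex 2 of 10 members were called in wild type and in knockout, Per1 and Rorb, both lower in hippocampus, where 16.8% and 16.3% of all genes were called and 9.69% and 8.69% were lower. In brainstem against cortex 5 members were called in wild type and 6 in knockout, all lower in brainstem, against 35.7% and 35.5% of all genes in either direction and 16.6% lower in each. In brainstem against hippocampus 5 members were called in wild type (4 lower, 1 higher) and 4 in knockout (3 lower, 1 higher), against 41.5% and 40.3% of all genes. Of all genes, 19.3% and 19.6% were lower and 22.2% and 20.8% higher there. The median difference of brainstem from cortex over the members was -0.36 in wild type and -0.44 in knockout, beside 0.03 and 0.02 over all genes. No test of the members as a set was made. In bulk tissue a lower level can mean fewer cells that express a gene or less RNA in each, and these cannot be told apart.

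Npas2, a relative of Clock known from the forebrain, had the largest regional difference of the members. Its wild-type levels were -3.07, -2.78 and -3.26 in cortex, -4.05, -3.56 and -3.18 in hippocampus, and -4.87, -5.48 and -5.09 in brainstem. In knockout they were -3.45, -2.84 and -2.99, then -3.40, -3.66 and -4.07, then -4.52, -5.05 and -4.77. All 6 brainstem levels lay below all 12 forebrain levels, while cortex and hippocampus overlapped. Brainstem was 4.32-fold lower than cortex in wild type (log2 difference -2.11 ± 0.25, adjusted p = 1.1e-05) and 3.21-fold lower in knockout (-1.68 ± 0.25, adjusted p = 9.8e-05). Against hippocampus it was lower by -1.55 ± 0.25 in wild type (adjusted p = 1.6e-04) and by -1.06 ± 0.25 in knockout (adjusted p = 0.0034). With the slide as a fixed block the knockout value was -0.96 and was not called (adjusted p = 0.076). On the 1 slide that held both regions, with 1 array each, the differences were -1.04 in wild type and -1.36 in knockout.

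Clock, which is expressed throughout the body, showed no such pattern. The 9 wild-type levels ran from 0.48 to 0.72 in all 3 regions, and the group means of wild type were 0.56 ± 0.07 (SD) in cortex, 0.62 ± 0.09 in hippocampus and 0.55 ± 0.04 in brainstem. None of its region comparisons was called, and the differences lay between -0.27 and 0.06. Without knockout brainstem array 3 Clock was called lower in knockout brainstem than in cortex (-0.56, adjusted p = 0.027) and hippocampus (-0.53, adjusted p = 0.031), and with its 3 probes averaged the latter was -0.30 (adjusted p = 0.048). Arntl, the partner of both, was lower in brainstem than in cortex by -0.71 ± 0.10 in wild type (adjusted p = 8.1e-05) and by -0.73 ± 0.10 in knockout.

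Per1 fell stepwise from cortex through hippocampus to brainstem. Its wild-type levels were 2.27, 2.52 and 2.20 in cortex, 1.64, 1.87 and 1.90 in hippocampus, and 1.47, 1.29 and 1.31 in brainstem. The knockout levels were 2.08, 2.52 and 2.11, then 1.63, 1.78 and 1.59, then 1.49, 1.40 and 1.27. No 2 regions overlapped in either genotype. Of all genes, 40.2% in wild type and 31.4% in knockout did not overlap between hippocampus and cortex, 52.1% and 39% between brainstem and cortex, and 57.3% and 48.1% between brainstem and hippocampus. Hippocampus was below cortex by -0.53 ± 0.13 in wild type (adjusted p = 0.012) and by -0.58 ± 0.13 in knockout (adjusted p = 0.0069). The wild-type call was lost without cortex array 2 (-0.43, adjusted p = 0.062) or without hippocampus array 1 (-0.45, adjusted p = 0.065). Brainstem was below cortex by -0.98 ± 0.13 in wild type (adjusted p = 3.5e-05) and by -0.85 ± 0.13 in knockout (adjusted p = 1.2e-04). The step from hippocampus to brainstem was called in wild type (-0.45 ± 0.13, adjusted p = 0.013) and missed the threshold in knockout (-0.28 ± 0.13, adjusted p = 0.10). The difference between those steps was 0.17 ± 0.18 and was not called. With the slide as a fixed block the wild-type step was -0.43 with an adjusted p of 0.069. Of 15 immediate early genes, the class of activity-induced genes to which Per1 is often added, 13 were lower in wild-type brainstem than in wild-type cortex (median difference -2.50), and their part in the Per1 values was not tested.

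Per2 and Cry2, partners in the repressor complex, were lower in brainstem than in both forebrain regions, and each rests on its brighter probe. Per2 levels in wild type were 0.00, 0.15 and -0.13 in cortex, -0.26, -0.04 and -0.08 in hippocampus, and -0.52, -0.50 and -0.78 in brainstem. Brainstem Per2 was below cortex by -0.61 ± 0.16 (adjusted p = 0.0069) and below hippocampus by -0.47 ± 0.16 (adjusted p = 0.026). In knockout the values were -0.49 and -0.46 (adjusted p = 0.023 and 0.028). All of these calls but that of wild-type brainstem against cortex were fragile. The knockout call against cortex was lost without any 1 of 3 arrays (knockout brainstem 2 or 3, or knockout cortex 1), with adjusted p up to 0.11. That against hippocampus was lost without any 1 of 5 in knockout (brainstem 2 or 3, or hippocampus 1, 2 or 3) and of 3 in wild type (brainstem 3, or hippocampus 2 or 3). The second, dimmer Per2 probe gave -0.26 and -0.20 for brainstem minus cortex in wild type and knockout, neither called.

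Cry2 levels in wild type were 1.61, 1.69 and 1.67 in cortex, 1.60, 1.31 and 1.43 in hippocampus, and 1.07, 0.80 and 0.92 in brainstem. Each brainstem level lay below every forebrain level of its genotype. Brainstem was below cortex by -0.73 ± 0.14 in wild type (adjusted p = 8.2e-04) and by -0.72 ± 0.14 in knockout (adjusted p = 9.3e-04). The second Cry2 probe, also above background on all arrays, gave only -0.17 and -0.10, neither called, and no Cry2 call remained when the probes were averaged. Per3 and Cry1 were not called in any region comparison, with differences from -0.23 to 0.25 for Per3 and from -0.28 to 0.56 for Cry1. With the slide as a fixed block Per3 was lower in wild-type brainstem than in hippocampus (-1.16, adjusted p = 0.023). Without knockout brainstem array 3 Cry1 was higher in knockout brainstem than in hippocampus (0.95, adjusted p = 0.031).

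In the second loop the members split. Rorb, the ROR receptor known for layer 4 of the cortex, was lowest in hippocampus. Its wild-type levels were -2.73, -2.85 and -3.11 in cortex, -3.86, -3.86 and -3.48 in hippocampus, and -3.25, -3.01 and -3.33 in brainstem. The hippocampal levels lay below all others of that genotype, and cortex and brainstem overlapped. Hippocampus was 1.78-fold below cortex in wild type (-0.84 ± 0.14, adjusted p = 9.2e-04) and 1.74-fold below in knockout (-0.80 ± 0.14, adjusted p = 0.0014), and the second Rorb probe gave -0.48 and -0.50 (adjusted p = 0.041 and 0.036). Brainstem was above hippocampus by 0.53 ± 0.14 in wild type and 0.41 ± 0.14 in knockout (adjusted p = 0.0078 and 0.034). The second probe gave 0.07 and 0.10 there, not called, and both calls were lost with normexp background correction (0.22 and 0.19, adjusted p = 0.13 and 0.20). In knockout that call was also lost without any 1 of 4 arrays (brainstem 2, or hippocampus 1, 2 or 3). For brainstem against cortex the brighter Rorb probe was called in knockout (-0.39, adjusted p = 0.048), and leaving out any 1 of 13 arrays ended that call. The second probe gave -0.41 in wild type, called (adjusted p = 0.047), and -0.40 in knockout, not called (adjusted p = 0.054). The wild-type value of the brighter probe was -0.30, and the difference between the genotypes was not called. The list of layer 4 markers, which holds Rorb, had 3 of 4 genes lower in wild-type brainstem than in cortex. Mean levels of that list in wild type were -0.25 to -0.12 in cortex, -1.49 to -1.12 in hippocampus and -1.02 to -0.81 in brainstem.

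Nr1d1, the repressor of this loop, was lower outside cortex. Its wild-type levels were -0.33, -0.23 and -0.37 in cortex, -0.72, -0.83 and -0.71 in hippocampus, and -0.56, -0.78 and -0.85 in brainstem. The cortex levels did not overlap those of the other regions, which did overlap each other. Brainstem was below cortex by -0.42 ± 0.15 in wild type (adjusted p = 0.044) and by -0.51 ± 0.15 in knockout (adjusted p = 0.018). The wild-type call was lost without any 1 of 10 arrays and the knockout call without cortex array 2 or brainstem array 3. Hippocampus was below cortex by -0.44 ± 0.15 in wild type (adjusted p = 0.065), which was called once the replicate number entered as a block (adjusted p = 0.030) and without any 1 of 3 knockout arrays (cortex 2, or brainstem 1 or 3). The other 2 Nr1d1 probes gave -0.24 for wild-type brainstem minus cortex, neither called.

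Dbp was called between regions mainly once the replicate number was a block. Its wild-type levels were 5.62, 5.74 and 5.18 in cortex, 5.05, 4.90 and 4.59 in hippocampus, and 5.27, 5.45 and 4.92 in brainstem. The knockout levels were 5.70, 5.89 and 4.96, then 5.11, 5.21 and 4.54, then 5.35, 5.50 and 4.95. Within each number of each genotype hippocampus was lowest. Hippocampus minus cortex was -0.67 ± 0.26 in wild type and -0.56 ± 0.26 in knockout, not called in the fit without the number (adjusted p = 0.093 and 0.16). With the number as a block they were called (adjusted p = 4.6e-04 and 0.0015). So were brainstem minus hippocampus, 0.37 in wild type (adjusted p = 0.0088) and 0.31 in knockout (adjusted p = 0.021), and brainstem minus cortex in wild type (-0.30, adjusted p = 0.027). On the 1 slide that held both regions, brainstem array 3 was below hippocampus array 1, by -0.13 in wild type and -0.16 in knockout. That pair has different numbers. Without knockout cortex array 3 the knockout difference of hippocampus from cortex was -0.84 and was called without the block (adjusted p = 0.033).

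**Figure D3:**
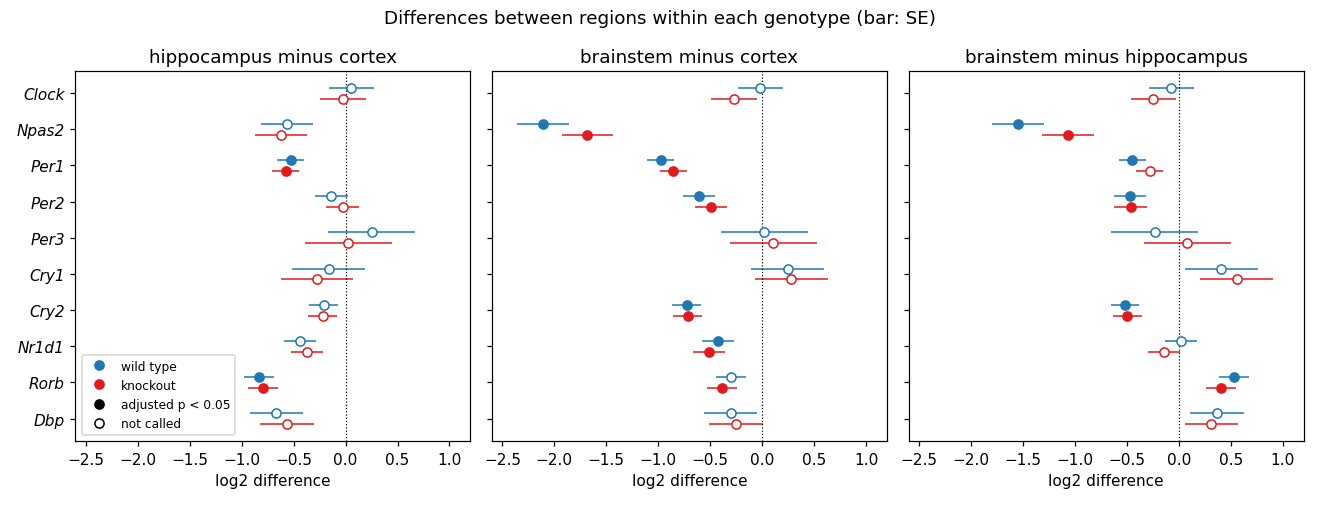
Differences between regions (log2, horizontal axis) for each clock gene within wild type (blue) and knockout (red). Bars are standard errors, and filled points have an adjusted p under 0.05 in limma without the replicate number. Npas2 in brainstem lies farthest to the left, and Rorb is the 1 filled member to the right of 0.

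Among the 39 other clock pathway genes the number called higher and lower was 9 and 9 for brainstem against cortex in wild type, 9 and 6 in knockout, 10 and 10 for brainstem against hippocampus in wild type, and 10 and 9 in knockout. For hippocampus against cortex it was 2 and 5 in wild type and 2 and 4 in knockout. Of all genes, 35.7% and 35.5% were called for brainstem against cortex in wild type and knockout. The shares were 41.5% and 40.3% for brainstem against hippocampus and 16.8% and 16.3% for hippocampus against cortex. Rora, a relative of Rorb, went the other way from most members and was higher in brainstem than in cortex by 1.44 ± 0.17 (adjusted p = 9.4e-06) in wild type. Nr1d2, the relative of Nr1d1, was higher there by 0.35 ± 0.08 (adjusted p = 0.0037). Tef, the PAR-bZIP relative of Dbp, was lower by -0.60 ± 0.10 (adjusted p = 2.2e-04), and Usp2, a deubiquitinase that acts on Per proteins, was lower by -0.92 ± 0.13 (adjusted p = 5.5e-05). Hlf, the third PAR-bZIP factor, was lower in hippocampus than in cortex by -0.85 ± 0.13 (adjusted p = 5.7e-04). The peptide Avp was higher in brainstem than in cortex by 4.54 ± 0.52 (adjusted p = 8.6e-06), while Vip, here a marker of a class of forebrain interneurons as well as a clock peptide, was lower by -3.13 ± 0.21 (adjusted p = 4.2e-08).

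Region markers followed the labels, with 6 of 7 brainstem markers higher and 7 of 7 cortical markers lower in wild-type brainstem than in wild-type cortex. The brainstem tissue also carried 10 of 10 markers of thalamus and habenula and 5 of 6 of hypothalamus above cortex. Mean levels of the thalamic list were 1.68 to 1.80 on the wild-type brainstem arrays and -0.99 to -0.95 on the wild-type cortex arrays, and Rora is 1 of its members. Those of the hypothalamic list, which holds Avp, were 1.93 to 2.31 and -2.99 to -2.38. Oligodendrocyte markers were higher in 5 of 5 and neuron markers lower in 2 of 3. Cortex carried striatal markers. Mean levels of that list in wild type were 0.99 to 1.19 in cortex, -1.41 to -0.97 in hippocampus and -0.89 to -0.64 in brainstem. In knockout they were 0.54 to 0.72 in cortex, -1.51 to -0.99 in hippocampus and -0.77 to 0.56 in brainstem. The part of these lists in the regional values of the clock genes was not tested.

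The last question was how far replicate numbers set clock genes apart. The hour of collection is not known here, and its part in these values was not tested. A model with the group and the number called Dbp and Per3, 2 of 10 members, against 23.1% of all genes. Number 3 was the odd one for both. The share of members was near that of all genes.

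Dbp was lowest in number 3 in all 6 groups. Its number 3 levels were 5.18 and 4.96 in wild-type and knockout cortex, 4.59 and 4.54 in hippocampus, and 4.92 and 4.95 in brainstem. The lower of the other 2 arrays of each group stood at 5.62, 5.70, 4.90, 5.11, 5.27 and 5.35 in the same order. Number 3 was below the mean of numbers 1 and 2 by -0.54 ± 0.06 (SE). The adjusted p for the number was 6.6e-04 in limma's F test, and Dbp ranked 137 of the 22671 genes. That fit had no term for the mouse and counted every array as independent. If arrays of 1 number and genotype came from 1 mouse, all number 3 arrays came from only 1 mouse of each genotype. The SE, the p and the count of 6 groups would then overstate the replication. The same holds for the results of that fit given below for other genes. A test that let the numbers differ between genotypes called Dbp alone of the 10 (adjusted p = 0.0053), against 9.12% of all genes.

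Per3, whose window printed above holds D-boxes, was the other member called, and the part of Dbp in its values was not tested. Its levels in number 1, 2 and 3 were -3.64, -3.28 and -4.40 in wild-type cortex, -3.63, -2.81 and -3.93 in knockout cortex, -3.56, -3.37 and -3.64 in wild-type hippocampus, and -3.03, -3.50 and -3.76 in knockout hippocampus. In brainstem they were -3.40, -3.49 and -4.37 in wild type and -2.52, -3.30 and -4.23 in knockout. Number 3 was again lowest in all 6 groups, below the mean of the others by -0.76 ± 0.17 (adjusted p = 0.018). That call was lost without any 1 of 3 number 3 arrays, wild-type cortex (adjusted p = 0.059), wild-type brainstem (0.053) or knockout brainstem (0.058). Without knockout brainstem array 1 it was kept. As for Dbp, the SE, p and count of groups would overstate the replication if arrays of 1 number and genotype shared a mouse.

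None of the other 8 members was called for the number. Number 3 minus the mean of numbers 1 and 2 was below 0 for 9 of the 10 members, counting Npas2 at 0.00, with a median of -0.15 against -0.04 for all genes, of which 58% were below 0. It was -0.19 ± 0.08 for Per2, -0.20 ± 0.08 for Nr1d1, -0.22 ± 0.22 for Cry1 and -0.10 ± 0.07 for Per1, and 0.20 ± 0.13 for Clock, whose number 3 level was the highest in 5 of 6 groups. A single number was lowest or highest of the 3 in all 6 groups for 16.4% of all genes, and number 3 was the lowest for 9.6% and the highest for 3.73%. The second probe of Cry2 was low in number 3 in all 6 groups (-0.60, adjusted p = 0.0021 in a fit of all probes), while its brighter probe gave -0.10. The second probe of Nr1d1 gave -0.30 (adjusted p = 0.013) and its dimmest -0.12 (adjusted p = 0.72). The second Per2 probe gave -0.21, and the other Clock probes 0.14 and -0.09, none called. The second Rorb probe was at 0.16, above the mean of the others in all 6 groups and opposite in sign to its brighter probe at -0.12, and was not called. The second Cry1 probe, which did not pass the filter on dim probes, was not tested, and its number 3 levels were also above the mean of the others in all 6 groups.

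**Figure D4:**
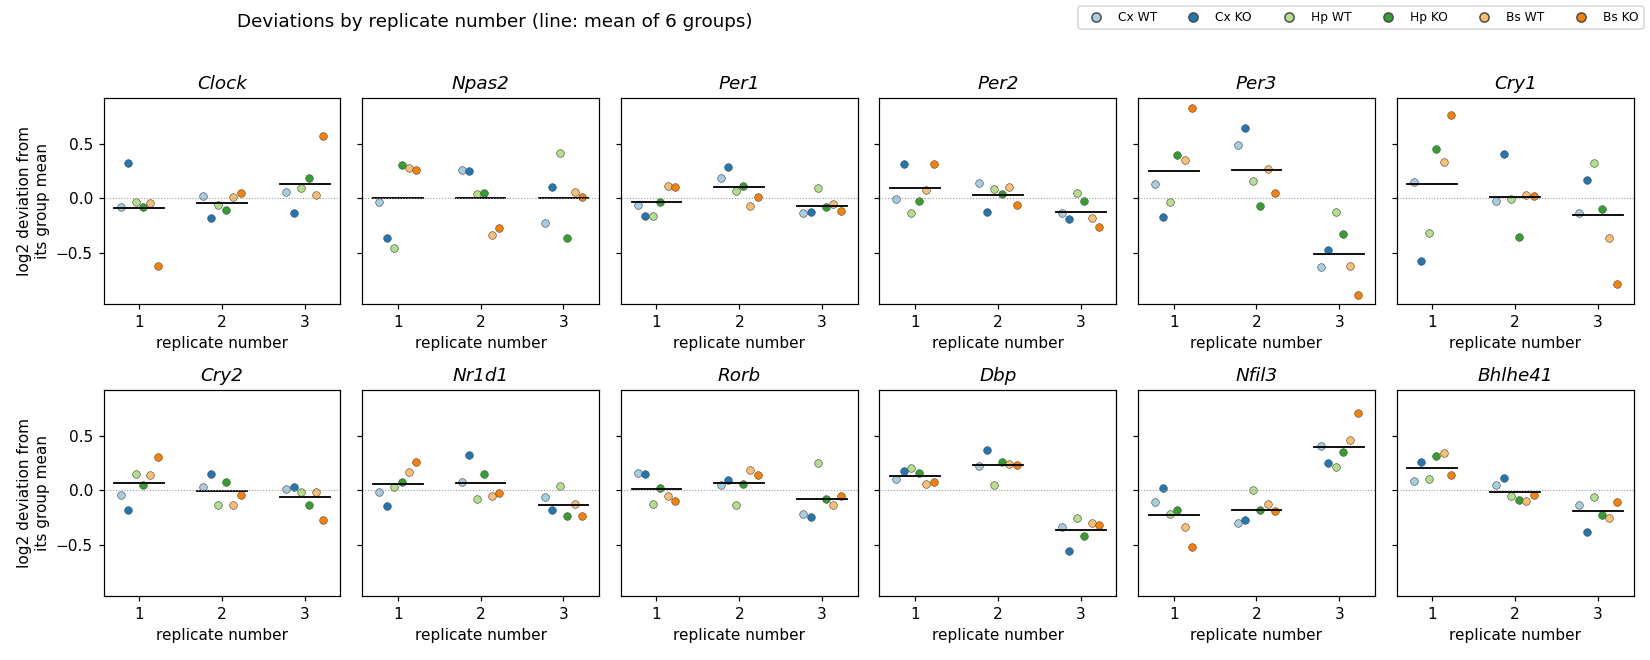
Deviation of each array from the mean of its group (log2, vertical axis) by replicate number (horizontal axis) for the 10 clock genes and for Nfil3 and Bhlhe41. Each point is 1 of the 6 groups and each line the mean of the 6. In number 3 all points of Dbp, Per3 and Bhlhe41 lie below 0 and all points of Nfil3 above it.

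Of the 39 other clock pathway genes, 8 were called for the number, 4 higher and 4 lower in number 3, a share near the 23.1% of all genes. Nfil3, the antagonist of Dbp, was the clearest of those higher. Its number 3 levels ran from 0.45 to 0.74 and those of numbers 1 and 2 from -0.56 to 0.37, with number 3 highest in all 6 groups (0.60 ± 0.09, adjusted p = 0.0031). Sfpq, a cofactor of Per proteins, was higher by 0.33 ± 0.06 (adjusted p = 0.0060), and Gsk3a and Ncoa2 by 0.53 and 0.19. Bhlhe41 (DEC2), a repressor of E-box genes, was lower by -0.29 ± 0.07 (adjusted p = 0.0087), and Fmo2 by -1.02, a call lost without wild-type cortex array 3 or wild-type brainstem array 3 (adjusted p of 0.071 at most). The other 2 calls, Rbm3 (-0.28) and Lpin1 (-0.23), were each lost without any 1 of 7 arrays. Arntl, whose RNA runs in opposite phase to Dbp in most tissues, differed by 0.09 ± 0.06 and was not called (adjusted p = 0.50), and Tef by -0.01 ± 0.05 (adjusted p = 0.42). The Gsk3a and Ncoa2 values were called with adjusted p of 0.012 and 0.014, and Ncoa2 was at -0.062 when its probes were averaged.

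Other gene lists are given beside the same 23.1% of all genes. Of the 15 immediate early genes, 9 were called for the number with number 3 above the mean of the others and 2 with it below, led by Egr2 (0.56), Fos (0.54) and Egr1 (0.59). Their mean level was lowest in number 1 in all 6 groups, where it deviated by -0.47 to -0.29 from the group mean, against 0.02 to 0.32 in number 2 and 0.11 to 0.33 in number 3. Of 13 glucocorticoid-responsive genes, all 13 had a difference above 0 in number 3 and 4 were called, a share near that of all genes, among them Plin4 (0.40 ± 0.11, adjusted p = 0.0014). Both erythrocyte markers tested were lower in number 3. Per1, which is also induced by activity and glucocorticoids, was at -0.10 ± 0.07 in number 3 and was not called. The part of these groups in the values of Per1, Dbp and Per3 was not tested.

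Slide and number were partly bound together, because the number 3 arrays of cortex and of brainstem were on a different slide from numbers 1 and 2. Numbers 2 and 3 of hippocampus shared a slide, and there Dbp was lower in number 3 by -0.31 in wild type and -0.68 in knockout and Per3 by -0.28 and -0.26. With the slide as a fixed block beside the number, Dbp was at -0.41 (adjusted p = 0.14) and Per3 at -0.23 (adjusted p = 0.85). That fit called 0 of all 22671 genes, with 3477 at an unadjusted p under 0.05, among them 1 member.

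Spread between replicate arrays differed widely among the members. The residual SD of Per3 (0.55) stood at the 92.2 percentile of all genes and that of Cry1 (0.46) at 87.6, followed by Dbp (0.33, percentile 74.5), Npas2 (0.32, 73.1) and Clock (0.28, 65.6). Per2, Nr1d1, Rorb, Cry2 and Per1 lay between 0.15 and 0.19, below the median gene. Set against the 1000 genes nearest in mean level, the order changed. Dbp then stood highest, at the 98.3 percentile, before Per3 (93.5), Clock (87.7) and Cry1 (83.9), and Npas2, Cry2, Per2 and Per1 lay at 60.4, 59.1, 58.4 and 53, Nr1d1 at 48.5 and Rorb at 16. Once the number was in the model the SD of Dbp was 0.11. With normexp correction the SD of Cry1 was 0.20 and that of Per3 0.33.

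The widest deviations of Clock and Cry1 were on knockout arrays. Clock levels in knockout brainstem were -0.11, 0.56 and 1.09 for numbers 1, 2 and 3, against 0.50, 0.56 and 0.58 in wild type, and knockout cortex array 1 stood at 1.10. Cry1 in knockout brainstem ran the other way, at -3.02, -3.75 and -4.57. The other Clock probes differed on the same brainstem arrays. The second, at -1.71, -2.05 and -2.13, ran against the first, and the third, at -5.23, -4.72 and -4.67, ran with it. When the 3 Clock probes were averaged the residual SD was 0.13. Per3 and Cry1 were highest of their group on knockout brainstem array 1, with deviations of 0.83 and 0.76, and lowest on array 3 (-0.88 and -0.79).

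**Figure D5:**
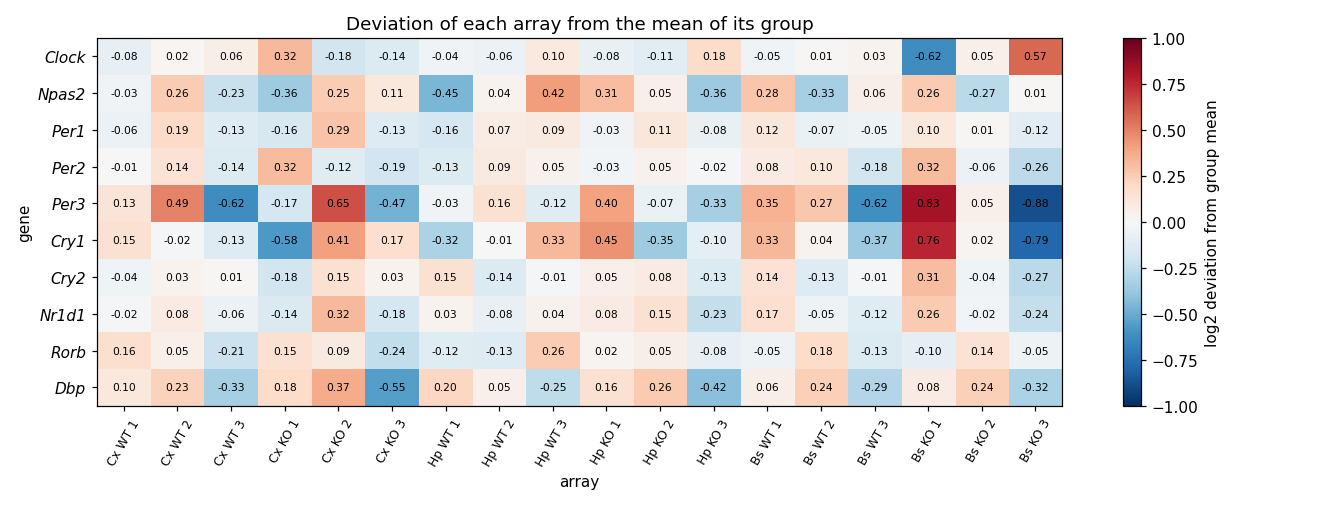
Deviation of each array (columns, by region, genotype and number) from the mean of its group for each clock gene (rows), in log2 units printed in the cells and coloured from blue (below the group mean) to red (above). Knockout brainstem arrays 1 and 3 show the largest opposite deviations for Clock, Per3 and Cry1, and number 3 is blue for Dbp in every group.

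The genes most like Dbp across the 18 arrays, after each group's mean was removed, were Miip, Sbsn and Pard3b (Pearson r of 0.96, 0.96 and 0.96), and for Per3 they were Arl6ip1, Kdm4c and Fbxw4 (0.96, 0.95 and 0.95). Over the uncentred levels, which carry the regions, Npas2 was most like Kcnh3, Syt16 and Bcorl1 (0.96 each) and Rorb most like Tubb5, Ptprd and Ccdc159 (0.96, 0.95 and 0.95). These values describe 18 arrays that share slides and numbers, and the genes were picked as the best of 14825 with a symbol.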

How the data were processed

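Scanner output of Agilent Feature Extraction 10.7.3.1 (protocol GE1_107_Sep09, design build mm9, per the file headers) was used. The deposited intensity values are background-subtracted processed signals. Per the labels' protocols, RNA was extracted with Isogen then amplified and labelled with Cy3. From these, log2 of the processed signal minus each array's 75th percentile was computed. Control and outlier spots (30 to 140 an array) were left out, spots of a probe were averaged, and a probe was kept if well above background on all 3 arrays of a group (30066 probes). Accessions were named through the RefSeq table of GRCm38.p6: 26690 probes had 1 symbol, 14484 none and 0 several. The brightest probe stood for a gene.

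Groups were compared in 1 fit of 18 arrays with limma 3.58.1 (R 4.3.3), tested on simulated data first. The 3 arrays a group limit the precision. All members were named. Of the other pathway genes, those called or of lowest p in a comparison and Arntl could be named. Members and lists were chosen with earlier results of these data known. Normexp used median signals, since the files hold no mean signal column. The pairing of numbers was checked by the correlation of deviations over all genes. In the same region, all 9 pairs of wild-type and knockout arrays with 1 number correlated at 0.24 to 0.62. Each of these pairs also shared a slide, so number and slide cannot be told apart there. Arrays of 1 number from different regions shared no slide. Their correlations ran from -0.05 to 0.71 within a genotype (median 0.22). Across genotypes, where arrays cannot share a mouse, they ran from 0.01 to 0.64 (median 0.17). Arrays of different numbers from different regions had medians of -0.12 within and -0.15 across genotypes, and reached 0.29 and 0.31. The highest value, 0.71, was that of wild-type cortex array 3 with brainstem array 3. Each lay on another slide than the rest of its group, so slide and number were partly bound there too. The number was taken as a pairing, but these values do not show that arrays of 1 number and genotype came from 1 mouse. Alternatives were quantile normalization, normexp, no filter, averaged probes, replicate, mouse and slide blocks, averaged regions, trend and robust moderation, the deposited table, and each array left out. Results of some other pathway genes are not reported here by name.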

Additional observations from a re-analysis of the deposited data

How the results depend on the processing

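No call of a member changed sign under any setting. Over settings other than leaving out an array, 1372 of 1430 member values kept their side of the threshold, 37 lost a call and 21 gained one. With 1 array left out, 2468 of 2520 kept it. The knockout counts of members stayed at 0 throughout, with the replicate block too. The hippocampus minus cortex count in wild type, 2, was 4 with the number as a replicate block, with the mouse as a random block and with the mouse as a fixed block. Brainstem minus hippocampus in wild type was 3 with averaged probes, and in knockout 2 with the slide as a fixed block. The mouse number count was 2 with normexp. The number count was 0 with the slide as a fixed block beside the number, a setting chosen after seeing the data. By the titles of the deposited table, which hold other arrays in 7 columns, the hippocampus minus cortex counts were 0 and 0 (4 and 1 at an unadjusted p under 0.05). Brainstem minus cortex in knockout was 3, brainstem minus hippocampus 3 and 2, and the mouse and number counts 0 and 0 (1 and 1 unadjusted). Of all 22671 genes, hippocampus minus cortex called only 4 in wild type and 0 in knockout there (5227 and 1226 unadjusted). The mouse and the number called 0 of all genes (813 and 2208 unadjusted). Leaving out single arrays moved hippocampus minus cortex in wild type over 1 to 3, brainstem minus hippocampus in knockout over 2 to 5, and the mouse and number counts over 1 to 2. Of the other clock genes named here, Ncoa2 reversed with averaged probes, for the number (-0.062), brainstem minus cortex in knockout (0.077) and brainstem minus hippocampus in knockout (0.056). The cause was not tested. With normexp the residual SD of Npas2, Per3 and Cry1 was 0.17, 0.33 and 0.20, and the cause was not tested.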
